A study of Mus musculus with 19 samples.

Results

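Arc, Homer1, Npas4, Nptx2, Nptx1, Rgs2, Plk2, Rheb, Rasd1 and Ptgs2 are genes that neurons switch on when they are active and whose products act at synapses or in signalling inside the cell. These 10 genes were taken by symbol from a table of 51789 genes, and each matched 1 row by its Ensembl identifier. All 10 passed the filter on low counts in every comparison, so no member was left out. The rule that groups them names what they are known to do and uses no measured value. The members were nevertheless chosen with earlier results of these data known, so counts of members set beside all genes are a description.

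As background, synaptic input raises calcium in the neuron, and kinases then act on transcription factors already present, among them CREB, which binds the cyclic AMP response element (CRE). Genes that respond without new protein synthesis are called immediate early genes; some encode transcription factors and others, called effectors, encode proteins that change the synapse itself. In the hippocampus, Arc RNA is widely used to mark neurons that were active during learning. Arc protein promotes the removal of AMPA receptors, the main fast glutamate receptors, from the synapse, and Npas4 is a transcription factor induced by calcium influx.

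The study sequenced 19 libraries of ribosomal-RNA-depleted total RNA from dorsal hippocampus; the mice were C57BL/6J males aged 2 to 4 months, and each library is taken here as 1 mouse. In experiment 1 every mouse carried tTA, the tetracycline transactivator that switches on transgenes under a tet promoter, and every mouse was exposed to SOR, a name that the labels do not spell out. The DN group held 5 mice (genotype tTA+/DN+), and the controls were 6 mice without DN (tTA+/DN-). The series calls the animals Nr4ADN mice and their control littermates, and DN stands for a dominant-negative form of Nr4A, a family of nuclear receptors that activity also induces. Experiment 2 held control mice without DN only, 4 exposed to SOR and 4 kept in the homecage. SOR replicate 1 and homecage replicates 1 and 2 of experiment 2 were tTA-/DN-, and the other 5 mice were tTA+/DN-. The promoter that drives tTA, the cells that express DN and the time from SOR to dissection are not given in the sources used here.

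Libraries held 22258159 to 66991576 counts, and 27815 to 32495 genes were detected in each. SOR replicate 3 of experiment 2 was the smallest on both measures. All listed markers of dentate granule cells, CA1 and CA3 neurons, interneurons and glia had counts in every group. Markers of the choroid plexus, a tissue of the ventricle wall that borders the hippocampus, set 5 libraries apart: their 8 genes, led by Ttr, summed to 4176 and 1368 CPM (counts scaled to the size of the library) in control replicates 1 and 2 of experiment 1, to 1662 CPM in DN replicate 2, and to 1007 and 2215 CPM in SOR replicates 1 and 2 of experiment 2. In the other 14 libraries the sum lay between 23.0 and 178 CPM. Among these, DN replicate 1 of experiment 1 (176 CPM) and homecage replicate 2 of experiment 2 (178 CPM) were in between, with the rest at 79.7 CPM or less. In tissue like this, fewer cells of a type and less RNA per cell cannot be told apart.

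Promoter sequences from RefSeq (GRCm38.p6, 250 bases before to 50 bases after a start) were found for 6 of the members: Npas4, Rgs2, Plk2, Rheb, Ptgs2 and Homer1, the last with 2 starts. No promoter is shown for Arc, Nptx1, Nptx2 and Rasd1. The promoters of Homer1 and Plk2, both higher in every SOR library than in every homecage library below, and of Rgs2, whose groups overlapped, are shown because they hold the CRE or several copies of its core. Npas4 also holds 2 copies of the core, but the bases before its start all lie in annotated exons and are not printed. Capitals mark the full CRE (TGACGTCA) or its core (TGACG, or CGTCA where it lies on the other strand). Only bases upstream of the start and outside annotated exons are printed, 5′ to 3′.
Homer1 promoter, first start, chr13:93303507-93303756, plus strand, bases -250 to -1: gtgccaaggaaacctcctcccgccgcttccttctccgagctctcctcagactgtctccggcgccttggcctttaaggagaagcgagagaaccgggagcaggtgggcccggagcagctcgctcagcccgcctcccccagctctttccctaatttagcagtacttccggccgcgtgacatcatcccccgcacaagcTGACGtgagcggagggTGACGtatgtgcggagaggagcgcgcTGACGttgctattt
Plk2 promoter, chr13:110394794-110395043, plus strand, bases -250 to -1: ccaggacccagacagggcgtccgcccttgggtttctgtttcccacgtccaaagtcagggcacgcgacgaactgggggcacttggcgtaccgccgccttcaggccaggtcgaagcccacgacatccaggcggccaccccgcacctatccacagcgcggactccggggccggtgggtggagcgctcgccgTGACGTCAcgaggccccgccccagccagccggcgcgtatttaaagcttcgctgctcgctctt
Rgs2 promoter, chr1:144004162-144004399, minus strand, bases -250 to -13: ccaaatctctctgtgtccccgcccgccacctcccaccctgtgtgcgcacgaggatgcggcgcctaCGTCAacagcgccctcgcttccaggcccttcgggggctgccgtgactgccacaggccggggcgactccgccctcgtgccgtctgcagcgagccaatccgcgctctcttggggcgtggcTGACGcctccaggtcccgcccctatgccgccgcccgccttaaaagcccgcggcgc

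Both strands of each window were searched. The first Homer1 promoter held 3 copies of the core, with first bases at -56, -40 and -14 from the start. Plk2 held a full CRE at -62 to -55, and this palindrome contains the core on each strand. A further core of Plk2 lay after its start. Rgs2 held the core at -185 and -67, Npas4 at -179 and -169, Rheb at -247, and Ptgs2 only after its start. The second Homer1 start had none. Of the 32851 promoters in the RefSeq table, 1.79% held TGACGTCA and 20.8% held TGACG. The letters TCGTG, a core bound by NPAS4, stood in the Rgs2, Plk2 and Rheb windows and in 16% of all promoters. In Plk2, the match at -56 to -52 overlapped the CRE by 2 bases. No member promoter held the Nr4A response element AAAGGTCA (1.51% of all promoters), the AP-1 site TGANTCA (7.81%), the TATA box letters TATAAA (13.6%), a CArG box (1.63%), a MEF2 site (3.19%) or the ER stress response element (0.119%). A match of letters is a description of the window and shows no binding.

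Levels of the 10 genes spanned a wide range. Divided by the length of their annotated exons, Plk2 (82.0 ± 5.08 CPM per kilobase, SD, n = 4) and Nptx1 (58.7 ± 13.8) were the highest in homecage mice. Arc followed at 24.7 ± 2.90 CPM per kilobase and Homer1 at 19.6 ± 0.716. Rheb (12.2 ± 1.23) and Rgs2 (11.8 ± 1.70) did not differ beyond their spread, nor did Rasd1 (9.57 ± 1.19), Nptx2 (9.48 ± 0.728) and Ptgs2 (7.99 ± 2.29). Npas4 was far below the others at 0.887 ± 0.270 CPM per kilobase, above 31.7% of the genes tested, where Plk2 was above 98.3%. After SOR in experiment 2 the order was Plk2 (93.2 ± 2.63), Nptx1 (55.7 ± 13.2), Arc (42.6 ± 3.15), Homer1 (26.1 ± 2.12), Nptx2 (14.8 ± 3.89), Rheb (14.0 ± 1.47), Rgs2 (13.2 ± 1.45), Rasd1 (12.8 ± 0.681), Ptgs2 (8.78 ± 3.09) and Npas4 (0.789 ± 0.212). The 4 genes from Nptx2 to Rasd1 did not differ among themselves beyond the spread. In the controls of experiment 1, Arc (55.5 ± 25.6 CPM per kilobase) was level with Nptx1 (51.8 ± 2.90), with a far larger spread. All values below are CPM, which compare libraries and not genes.

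**Figure D1:**
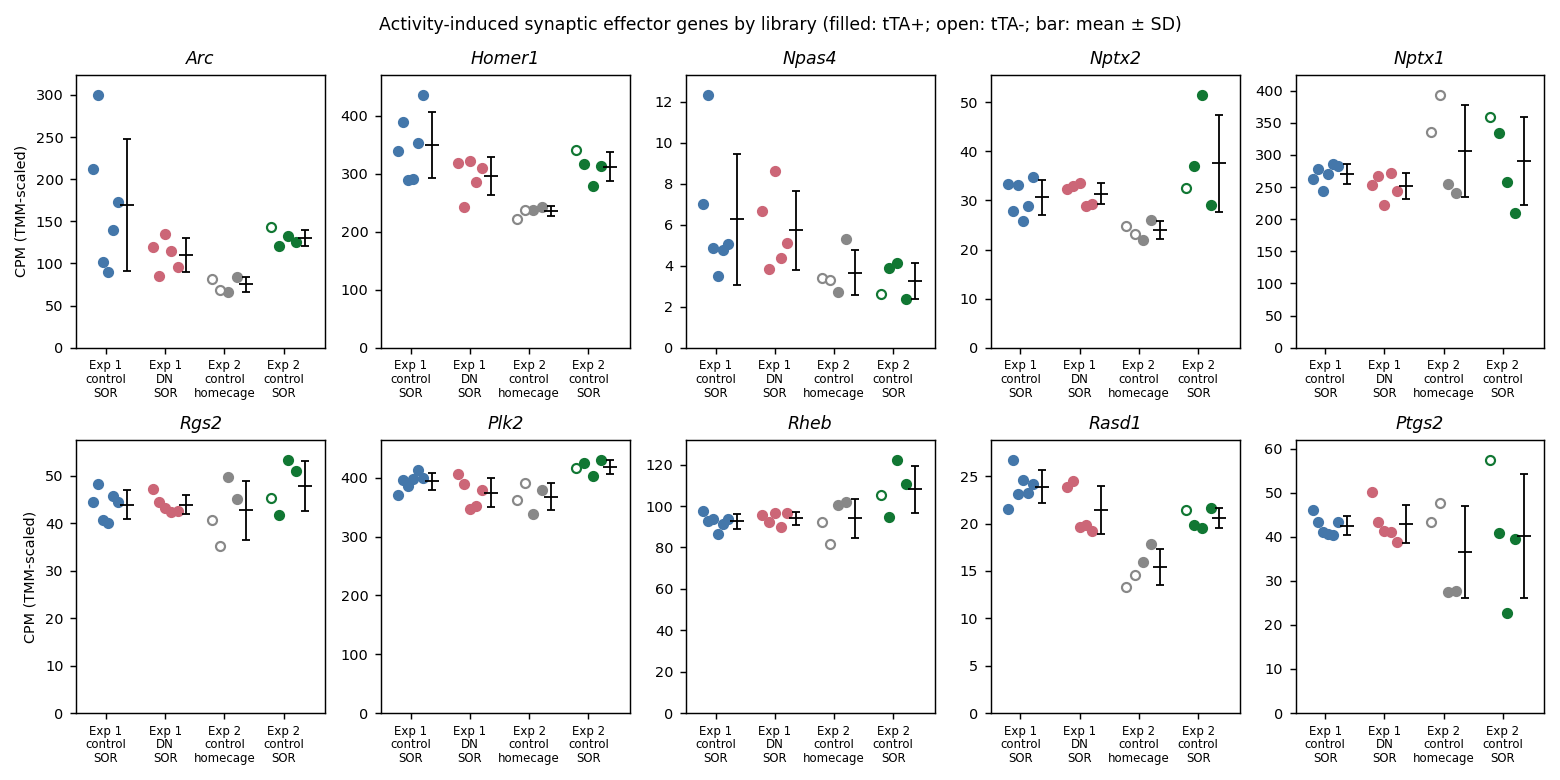
CPM (y axis, linear, from 0) of each of the 10 genes in each library, grouped by experiment, genotype and exposure; filled points are tTA+ mice, open points tTA- mice, and bars the mean ± SD of the group. The 4 SOR libraries of experiment 2 lie above all homecage libraries in Arc, Homer1, Nptx2, Plk2 and Rasd1, and Arc spreads from 90.2 to 300.2 CPM in the controls of experiment 1.

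The comparison of SOR with homecage mice in experiment 2 asked which genes differed with exposure. Arc rose 1.73-fold and was the only one of the 10 genes called by edgeR at an adjusted p under 0.05. Homer1, Nptx2, Plk2 and Rasd1 were also higher in all 4 SOR libraries than in any homecage library, by 1.14-fold to 1.56-fold, but were not called by edgeR; DESeq2 called Homer1, Nptx2 and Rasd1 (adjusted p = 5.84e-04, 0.0395 and 0.0495). Npas4, Nptx1, Rgs2, Rheb and Ptgs2 overlapped between the groups. Of the 10 genes, 8 had a higher estimate after SOR, against 51.5% of the 22305 genes tested. Groups that did not overlap with SOR higher were found for 5 of the 10 genes and for 3.06% of all genes. An unadjusted p under 0.05 was reached by 5 of the 10, all higher, and by 7.60% of all genes, and an adjusted p under 0.05 by 1 of the 10 and by 0.0897% of all genes (20 genes, all higher). The median log2 fold change was 0.19 over the 10 genes and 0.0076 over all genes tested.

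Arc (ENSMUSG00000022602.14, chromosome 15, 74669083 to 74672570, minus strand, 5 annotated exons; all member positions are on GRCm38 and cover the whole gene) was at 82.1, 69.0, 66.6 and 84.0 CPM in the homecage mice and at 143, 121, 132 and 125 CPM in the SOR mice, in the order of replicates 1 to 4, as for all members below. The lowest SOR library thus lay well above the highest homecage library, whether the mouse carried tTA or not. On the log2 scale the rise was 0.79 (SE 0.0991; edgeR adjusted p = 0.0131). The estimate stayed between 0.73 and 0.85 when any 1 library was left out, but the call was lost without homecage replicate 1 (adjusted p = 0.0817), homecage replicate 2 (0.0826), homecage replicate 3 (0.0863) or SOR replicate 1 (0.0837). It was also lost in tTA+ mice alone (0.74, adjusted p = 0.998), with all 19 libraries in 1 fit (0.80, adjusted p = 0.216), and in the 6 libraries poor in choroid plexus markers (0.77, adjusted p = 0.288), while its size was alike in each.

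Npas4 (ENSMUSG00000045903.8, chromosome 19, 4984355 to 4990316, minus strand) showed no such step. It was at 3.38, 3.29, 2.72 and 5.28 CPM in the homecage and at 2.62, 3.91, 4.11 and 2.40 CPM after SOR. Counts behind these values were 87 to 237 per library, the fewest of any member. The groups overlapped widely, and the log2 fold change was -0.18 (SE 0.249, edgeR adjusted p = 0.830). It turned to 0.053 without homecage replicate 4. Among 12 partners of the Arc and NPAS4 proteins, edgeR called none, and Wasf1, a regulator of actin, alone had an unadjusted p under 0.05 (log2 fold change -0.26, adjusted p = 0.621).

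Homer1 (ENSMUSG00000007617.18, chromosome 13, 93299635 to 93405129, plus strand) encodes a scaffold that ties metabotropic glutamate receptors to calcium stores. Activity induces a short form, Homer1a, that competes with the long forms; the annotation holds 12 transcripts, and the gene count adds them all. Homer1 was at 223, 238, 237 and 243 CPM in the homecage and at 340, 318, 279 and 313 CPM after SOR. Every SOR library was higher, with replicate 3, the smallest library, the closest to the homecage. This difference was 0.41 on the log2 scale (SE 0.0817; edgeR adjusted p = 0.157). Without SOR replicate 3 it was 0.46 and was called (adjusted p = 0.0189), and DESeq2 called it in all 8 libraries (adjusted p = 5.84e-04). None of the 10 genes of its scaffold partners was called by edgeR or reached an unadjusted p under 0.05, and their median log2 fold change was -0.03.

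Nptx2 (ENSMUSG00000059991.7, chromosome 5, 144545902 to 144557478, plus strand) and Nptx1 (ENSMUSG00000025582.4, chromosome 11, 119538719 to 119547753, minus strand) encode neuronal pentraxins, secreted proteins that gather AMPA receptors at synapses. Nptx2 was at 24.9, 23.2, 21.9 and 26.1 CPM in the homecage and at 32.5, 37.1, 51.5 and 29.1 CPM after SOR. SOR replicate 3 was the highest, followed by replicate 2, and all 4 SOR libraries lay above the homecage range. Nptx2 differed by 0.64 on the log2 scale (SE 0.157, edgeR adjusted p = 0.336; DESeq2 adjusted p = 0.0395), and 0.46 without SOR replicate 3. Nptx1 was at 336, 394, 254 and 241 CPM in the homecage and at 359, 335, 259 and 210 CPM after SOR, ranges that nearly coincide. Its log2 fold change of -0.07 (SE 0.188, edgeR adjusted p = 0.918) turned to 0.065 with tTA as a covariate. The 8 genes of the pentraxin and AMPA receptor list had a median of -0.05, and edgeR called none and gave none an unadjusted p under 0.05.

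Plk2 (ENSMUSG00000021701.7, chromosome 13, 110395046 to 110400844, plus strand) is a polo-like kinase that acts on spine proteins after sustained activity. It was at 363, 391, 339 and 380 CPM in the homecage and at 416, 425, 403 and 430 CPM after SOR. The groups were separate but close, and the log2 fold change was 0.19 (SE 0.0759, edgeR adjusted p = 0.628). The 8 other polo kinase and spine genes held no called gene and none with an unadjusted p under 0.05 by edgeR, with a median of -0.14. Rgs2 (ENSMUSG00000026360.9, chromosome 1, 143999338 to 144004161, minus strand), which shortens signalling by the G protein Gq, was at 40.8, 35.3, 49.7 and 45.1 CPM in the homecage and at 45.4, 41.8, 53.3 and 51.0 CPM after SOR. These ranges overlapped, and the log2 fold change was 0.16 (SE 0.119, edgeR adjusted p = 0.702). It ranged from 0.0795 without homecage replicate 2 to 0.24 without homecage replicate 3. The 9 G protein and RGS genes held no call and none with an unadjusted p under 0.05 by edgeR (median 0.06).

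Rheb (ENSMUSG00000028945.9, chromosome 5, 24802823 to 24842624, minus strand), the small GTPase that activates the growth kinase mTOR, was at 92.1, 81.5, 100.5 and 102 CPM in the homecage and at 105, 94.8, 122 and 110.5 CPM after SOR. SOR replicate 2 lay within the homecage range, and the log2 fold change was 0.20 (SE 0.102, edgeR adjusted p = 0.662). Of 10 genes around Rheb and mTOR edgeR called none, and Ddit4, an mTOR inhibitor, alone had an unadjusted p under 0.05 (0.35, adjusted p = 0.608). Rasd1 (ENSMUSG00000049892.7, chromosome 11, 59963181 to 59964944, minus strand), a Ras-like GTPase first known as a gene induced by the glucocorticoid dexamethasone, was at 13.3, 14.6, 15.9 and 17.8 CPM in the homecage and at 21.4, 19.8, 19.5 and 21.7 CPM after SOR. All SOR libraries were higher, and they varied little among themselves. For Rasd1 the log2 fold change was 0.42 (SE 0.107, edgeR adjusted p = 0.374; DESeq2 adjusted p = 0.0495). Of 6 genes of the Rasd1 and nitric oxide list edgeR called none, and Nos1, neuronal nitric oxide synthase, was lower at an unadjusted p under 0.05 (-0.32, adjusted p = 0.621).

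Ptgs2 (ENSMUSG00000032487.8, chromosome 1, 150100031 to 150108227, plus strand) encodes cyclooxygenase-2, which makes prostaglandins and is expressed by forebrain neurons. It was at 43.4, 47.7, 27.6 and 27.7 CPM in the homecage and at 57.5, 41.0, 22.8 and 39.6 CPM after SOR. SOR replicate 3 was the lowest of the 8 libraries and SOR replicate 1 the highest. Its log2 fold change was 0.14 (SE 0.256, edgeR adjusted p = 0.871) and turned to -0.08 without SOR replicate 1 and to -0.23 in libraries poor in choroid plexus markers. With tTA as a covariate it was 0.33 (unadjusted p = 0.0758, adjusted p = 0.830). In tTA+ mice alone it was 0.32, and there Rgs2, Rheb and Rasd1 were at 0.0346, 0.105 and 0.27. Of 10 prostaglandin genes edgeR called none, and the receptor Ptger2, at under 0.5 CPM in both groups, was the only one with an unadjusted p under 0.05 (-1.14, adjusted p = 0.604).

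**Figure D2:**
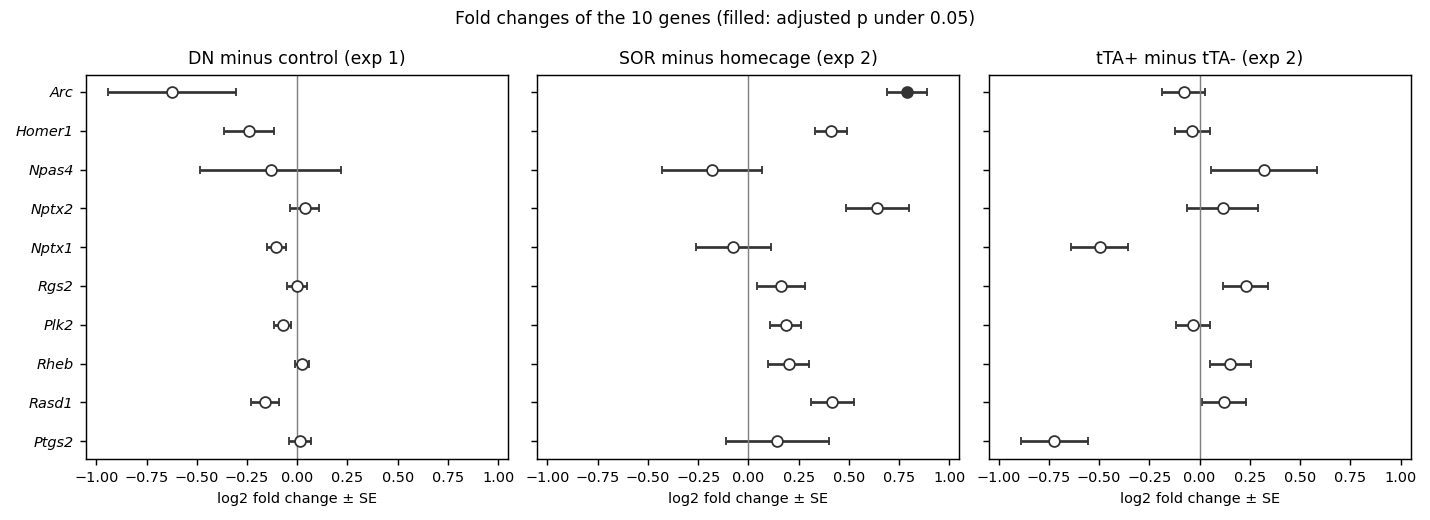
Log2 fold change ± SE (x axis) of the 10 genes in the 3 comparisons, 1 panel each; filled points have an adjusted p under 0.05. The single filled point is Arc after SOR at 0.79; Ptgs2 and Nptx1 have their largest estimates in the tTA panel, at -0.72 and -0.50.

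Other activity-induced genes were measured beside the members. Of 14 transcription factors in this class, 12 had a higher estimate after SOR, 7 of them at an unadjusted p under 0.05, with a median of 0.47. Fos, the classic immediate early transcription factor, rose from 4.16 ± 1.06 to 9.40 ± 0.864 CPM (SD, n = 4 each; log2 fold change 1.17, edgeR adjusted p = 0.0432) and was the only one called. Fosb (0.99), Egr1 (0.63) and Junb (0.51) had adjusted p of 0.0996, 0.157 and 0.336. All 17 other effectors had a higher estimate and edgeR called none of them; 7 had an unadjusted p under 0.05, led by the phosphatase gene Dusp5 (0.67) and the receptor tyrosine kinase inhibitor Errfi1 (0.52). Because Rasd1 is also known as a glucocorticoid-induced gene, a list of glucocorticoid-regulated genes was set beside them; it shares Per1 with the effectors and Ddit4 with the Rheb list. All 10 of its genes had a higher estimate, 8 at an unadjusted p under 0.05, and edgeR called Plin4 (log2 fold change 2.10, adjusted p = 2.36e-04) and Tsc22d3 (1.04, adjusted p = 0.00992). Its median was 0.54, above that of the 10 members, and the part of these genes' regulation in the Rasd1 value was not tested. The lists were chosen with earlier results of these data known, so their counts and medians are a description.

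Markers of other cells were set beside these values. The 8 choroid plexus markers had higher estimates after SOR (median log2 fold change 1.93, 0 called by edgeR, 3 at an unadjusted p under 0.05); their sum was 24.0 to 2215 CPM after SOR and 47.3 to 178 CPM in the homecage, and no marker was at 0 in all libraries of a group. Arc in the 2 SOR libraries poor in these markers, replicates 3 and 4, was 132 and 125 CPM, between the 143 and 121 CPM of the 2 rich ones. In those 6 libraries the log2 fold changes of Homer1, Nptx2 and Rasd1 were 0.33, 0.74 and 0.41, and those of Rgs2, Rheb and Nptx1 were 0.28, 0.30 and -0.39. Gjb6, an astrocyte gap junction gene, was called higher after SOR by edgeR (0.77, adjusted p = 0.0427), and the median of the 8 astrocyte markers was 0.05. Of the 8 endothelial markers, 6 had a lower estimate after SOR (median -0.14), 3 of them at an unadjusted p under 0.05, led by Kdr (-0.55, edgeR adjusted p = 0.157). Their sum was 179 to 199.2 CPM after SOR and 200.9 to 219.4 CPM in the homecage, so the groups did not overlap. The 8 microglia markers had a median of 0.04 (3 higher at an unadjusted p under 0.05) and the 8 oligodendrocyte markers one of 0.14 (2 higher), with sums that overlapped between the groups. Of the 10 dentate granule markers, 7 had a lower estimate after SOR (median -0.28); Rspo3 was lower (-0.34) and Pdzd2 higher (0.42) at an unadjusted p under 0.05. The dentate sum was 365 to 522 CPM after SOR and 381 to 629 CPM in the homecage. The medians of the CA1, CA3, interneuron and blood markers lay between -0.05 and 0.12. Among them the CA1 markers Gpr161 (0.39) and Man1a (-0.28), the interneuron marker Vip (0.45) and the blood marker Hbb-bt (0.53) had an unadjusted p under 0.05. None of the lists after the astrocyte one held a gene called by edgeR, and their part in the members' values was not tested.

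The comparison of DN with control mice in experiment 1 asked which genes differed with the dominant-negative Nr4A, while SOR and tTA were shared by all 11 mice. None of the 10 genes was called. Arc averaged 110 ± 19.9 CPM with DN and 170 ± 78.3 CPM in controls (SD, n = 5 and 6), and Homer1 296 ± 32.9 and 350 ± 57.0 CPM, differences within the spread of the controls. Rasd1 and Nptx1 were the 2 members with an unadjusted p under 0.05, both slightly lower with DN. Of the 10 genes, 6 had a lower estimate, against 50.0% of the 22391 genes tested. An unadjusted p under 0.05 was found for 3.83% of all genes and an adjusted one for 0.00893% (2 genes). The groups overlapped in all 10 genes; 0.299% of all genes had groups that did not overlap. The median log2 fold change was -0.09 over the members and 6.3e-05 over all genes. DESeq2 called none of the 10 either.

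With DN, Arc stood at 120, 84.6, 135, 114 and 96.1 CPM (replicates 1 to 5). The controls had 212, 300.2, 102, 90.2, 140 and 173 CPM (replicates 1 to 6), and the same order holds for the other members. DN replicate 2 lay below the lowest control, and the other 4 DN libraries lay in the lower part of the control range. Arc thus had a log2 fold change of -0.62 (SE 0.317, edgeR unadjusted p = 0.0809, adjusted p = 0.999). It was -0.38 without control replicate 2. In the 8 libraries poor in choroid plexus markers it was -0.12 (adjusted p = 1.0): control replicates 1 and 2, rich in these markers, were the 2 highest in Arc, while DN replicate 2, also rich, was the lowest of the DN libraries. Over experiment 1 the 8 choroid plexus markers had lower estimates with DN (median -0.98, 0 called by edgeR and none at an unadjusted p under 0.05), and their part in the Arc difference was not tested beyond that.

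Homer1 was at 318, 243, 323, 286 and 310.4 CPM with DN and at 339, 389, 289, 291, 353 and 436 CPM in controls. DN replicates 2 and 4 lay below every control, and the log2 fold change was -0.24 (SE 0.123, edgeR unadjusted p = 0.0802, adjusted p = 0.999). In the libraries poor in choroid plexus markers it was -0.15 (unadjusted p = 0.341). Npas4 was at 6.67, 3.86, 8.61, 4.36 and 5.13 CPM with DN and at 7.0, 12.4, 4.88, 3.51, 4.79 and 5.05 CPM in controls. Control replicate 2, the highest in Arc, was also the highest in Npas4. The Npas4 log2 fold change was -0.13 (SE 0.352, edgeR adjusted p = 0.999), turned to 0.19 without that library, and was 0.43 in the libraries poor in choroid plexus markers.

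Rasd1 was at 23.9, 24.5, 19.7, 19.8 and 19.2 CPM with DN and at 21.5, 26.7, 23.1, 24.6, 23.2 and 24.2 CPM in controls. DN replicates 3, 4 and 5 lay below every control, and DN replicates 1 and 2 lay inside their range. The log2 fold change was -0.16 (SE 0.0699, edgeR unadjusted p = 0.0336, adjusted p = 0.999), and -0.20 in the libraries poor in choroid plexus markers. Nptx1 was at 254, 267, 223, 272 and 243 CPM with DN and at 263, 278, 244, 271, 285 and 282 CPM in controls, a shift of -0.10 on the log2 scale (SE 0.0493, edgeR unadjusted p = 0.0489, adjusted p = 0.999). DN replicates 3 and 5 were below every control, and without DN replicate 3 the Nptx1 shift was -0.0623 (unadjusted p = 0.191). Plk2 was at 407, 389, 347, 352 and 380 CPM with DN and at 371 to 413 CPM (median 398) in controls, with DN replicates 3 and 4 the lowest of the 11 libraries and a log2 fold change of -0.07 (SE 0.0421, edgeR unadjusted p = 0.0996, adjusted p = 0.999). The Plk2 estimate was -0.11 without DN replicate 1 (unadjusted p = 0.0192, adjusted p = 0.870), -0.0454 without DN replicate 3 (unadjusted p = 0.306) and -0.10 in the libraries poor in choroid plexus markers (unadjusted p = 0.0442, adjusted p = 1.0).

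DN replicates 3 and 4 were also the 2 lowest of the 11 libraries in the 10 dentate granule markers, which summed to 389 and 358 CPM there and to 433 to 483 CPM in the other 9. Of these markers, 8 had a lower estimate with DN (median -0.07), and 1, Doc2b, had an unadjusted p under 0.05 (-0.20, adjusted p = 0.999). The medians of the other lists of cell markers beside choroid plexus lay between -0.09 (CA3) and 0.20 (blood), and edgeR called no marker. At an unadjusted p under 0.05, 1 CA1, 1 CA3, 2 astrocyte and 2 oligodendrocyte markers were lower with DN, and none was higher. The CA3 marker Trps1 had the smallest p (-0.11, edgeR unadjusted p = 0.00286, adjusted p = 0.999). The part of these markers in the Plk2, Rasd1 and Nptx1 values was not tested.

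The remaining 4 members differed little between the genotypes, with log2 fold changes from 3.05e-04 to 0.04 and an edgeR adjusted p of at least 0.999 each. Nptx2 was at 29.0 to 33.5 CPM (median 32.3) with DN and at 25.8 to 34.7 CPM (median 31.0) in controls. Rgs2 averaged 43.95 CPM in both groups, with SDs of 2.03 and 3.12. Rheb was at 89.7 to 96.6 CPM with DN and at 86.7 to 97.7 CPM in controls, and Ptgs2 at 38.8 to 50.1 CPM and at 40.5 to 46.1 CPM. The DN range of Nptx2 and Rheb lay inside the control range, and that of Ptgs2 spanned the whole control range.

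Around the members, all 14 activity-induced transcription factors had a lower estimate with DN (median -0.30), against 50.0% of all genes tested. None was called by edgeR, and Egr4 alone had an unadjusted p under 0.05 (-0.34, adjusted p = 0.999). Of 17 other effectors, 16 had a lower estimate, with a median of -0.13, 0 called by edgeR and 3 at an unadjusted p under 0.05 (Arl5b, Per1 and Dusp4). Genes of these lists are not independent: Junb and Nr4a1 followed Arc across the same libraries (r = 0.986 and 0.965). Arc was highest in control replicates 1 and 2, which were rich in choroid plexus markers. The part of those libraries in the shifts of these lists was not tested. In the 8 partner lists edgeR called none. Npas3 (0.14), Rap2a (-0.08) and Rasd2 (-0.14) were their only genes with an unadjusted p under 0.05, and the list medians lay between -0.06 and -3.15e-04. Of the 10 glucocorticoid-regulated genes, 9 had a lower estimate with DN (median -0.06). EdgeR called 0 of them, and 1, Per1, had an unadjusted p under 0.05.

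The tTA comparison in experiment 2 set 5 tTA+ against 3 tTA- control mice with exposure in the model, to see what the driver does without DN. No member was called by edgeR. Ptgs2 and Nptx1 were lower in every tTA+ library than in every tTA- library, which 3.40% of the 22904 genes tested also were. They were also the 2 members with an unadjusted p under 0.05, a level reached by 5.71% of all genes; 0.358% of all genes (82 genes) had an adjusted p under 0.05.

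Ptgs2 was at 43.4, 47.7 and 57.5 CPM in the tTA- mice (homecage 1, homecage 2 and SOR 1) and at 27.6, 27.7, 41.0, 22.8 and 39.6 CPM in the tTA+ mice (homecage 3 and 4, SOR 2 to 4). The tTA+ range ended just under the lowest tTA- library. Its log2 fold change was -0.72 (SE 0.167, edgeR unadjusted p = 0.00141, adjusted p = 0.171). Without SOR replicate 3 it was -0.64 and was called (adjusted p = 0.00139), and it was called by DESeq2 (adjusted p = 0.0104) and with no filter on low counts (adjusted p = 5.71e-05). Nptx1 was at 336, 394 and 359 CPM in the tTA- mice and at 254, 241, 335, 259 and 210 CPM in the tTA+ mice. SOR replicate 2 stood next to the tTA- mice and the other 4 tTA+ libraries were well below. Its log2 fold change was -0.50 (SE 0.144, edgeR unadjusted p = 0.00577, adjusted p = 0.392), and without SOR replicate 2 it was -0.58 and was called (adjusted p = 0.0464). In experiment 1, where every mouse was tTA+, Ptgs2 was at 38.8 to 50.1 CPM and Nptx1 at 223 to 285 CPM. Those libraries were scaled and fitted apart, and the experiments were not compared by a test.

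Among the other 8 members, Rgs2 was at 35.3 to 45.4 CPM in the tTA- mice and at 41.8 to 53.3 CPM in the tTA+ mice, where homecage replicate 4 and SOR replicate 2 were below the highest tTA- library. Its log2 fold change was 0.23 (SE 0.112, edgeR unadjusted p = 0.0680, adjusted p = 0.953). The remaining 7 had estimates from -0.08 (Arc) to 0.32 (Npas4), each with an unadjusted edgeR p above 0.17. Leaving out 1 library moved them widely: Npas4 lay between 0.0684 (without homecage replicate 4) and 0.53 (without homecage replicate 3), Arc between -0.18 (without homecage replicate 4) and -0.0025 (without SOR replicate 1), and Rasd1 between 0.0501 (without homecage replicate 4) and 0.27 (without SOR replicate 1).

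Markers of cell types were set beside the tTA contrast. Of 10 dentate granule markers 7 had a lower estimate in tTA+ mice and 3 a higher one (median -0.29). Among them edgeR called Doc2b (-1.66, adjusted p = 1.42e-04), C1ql2 (-2.19, adjusted p = 3.16e-04) and Dsp (-1.06, adjusted p = 0.0191) lower and Tdo2 (0.88, adjusted p = 0.00656) higher. The 6 CA3 markers were 3 higher and 3 lower (median -0.02), and edgeR called Npy2r lower (-1.01, adjusted p = 0.00594). The 10 dentate markers summed to 522 to 629 CPM in the tTA- libraries and to 365 to 476 CPM in the tTA+ libraries, with SOR replicate 2, the highest tTA+ library in Nptx1, at 476 CPM. The 6 CA3 markers summed to 355 to 401 CPM and to 327 to 363 CPM, and no marker of either list was at 0 in all libraries of a group. All 8 oligodendrocyte markers (median 0.20, 2 at an unadjusted p under 0.05), all 8 microglia markers (median 0.12, 0 at that level) and 6 of 8 interneuron markers (median 0.20, 2 at that level) had a higher estimate in tTA+ mice. The 6 CA1 markers had a median of -0.04, with 2 lower at that level. EdgeR called none of these 4 lists' genes. The part of all these markers in the Ptgs2 and Nptx1 values was not tested. Of the 14 activity-induced transcription factors, 9 had a lower estimate in tTA+ mice, 3 of them at an unadjusted p under 0.05, and of the 17 other effectors 11 had a higher one, with 3 higher and 1 lower at that level. Their medians were -0.19 and 0.07, and edgeR called none. Among the partner lists none was called by edgeR; Ryr1 (0.87, adjusted p = 0.0658) and Olfm1 (-0.42, adjusted p = 0.0835) came nearest.

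The members also varied between mice of a group. In the controls of experiment 1 the coefficient of variation was 50.9% for Npas4 and 46.2% for Arc, larger than in 98.2% and 97.4% of the genes tested, whose median was 10.3%. Homer1 was at 16.3%, while Plk2 (3.60%) and Rheb (3.89%) were among the steadier genes. The Npas4 value rested on control replicate 2: without it Npas4 was at 24.8% and Arc at 35.2%, larger than in 82.0% and 92.0% of genes. In the DN mice the coefficient was 33.7% for Npas4 and 18.1% for Arc, larger than in 90.6% and 69.8% of genes. In experiment 2 Arc varied by 11.8% in the homecage and by 7.38% after SOR, larger than in 49.6% and 11.2% of genes, and by 4.36% without SOR replicate 1. Npas4 varied by 30.4% and 26.8% there, larger than in 85.3% and 67.1% of genes, and by 11.4% without homecage replicate 4. Whether the spread of Arc differed between groups was not tested.

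**Figure D3:**
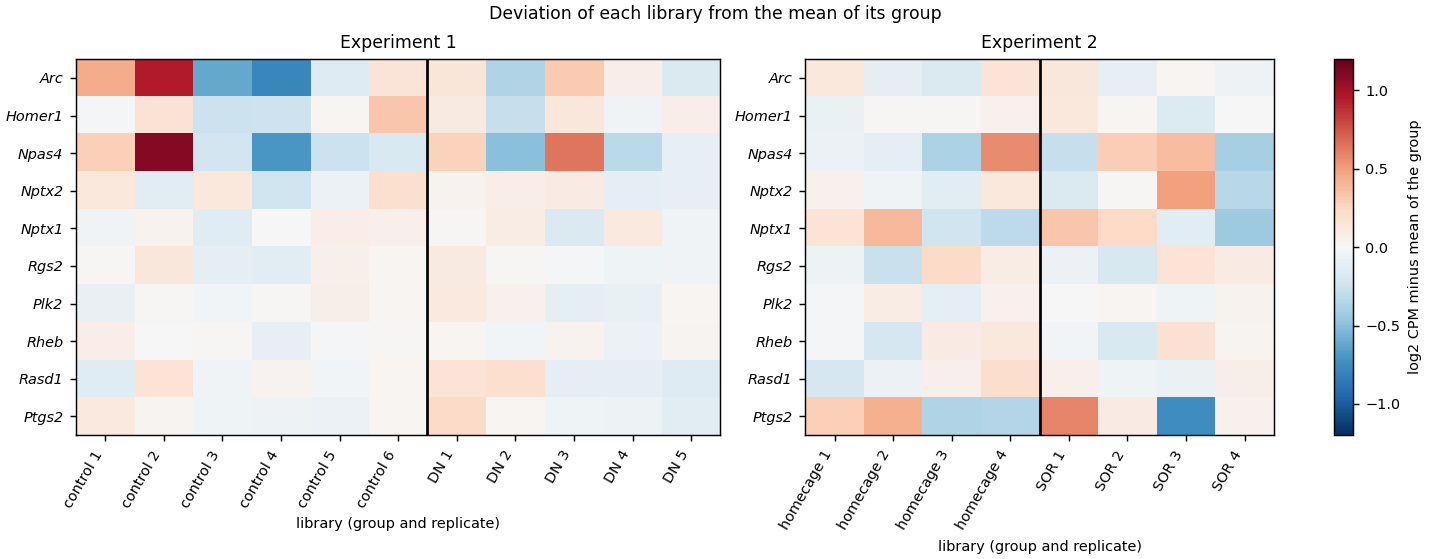
Log2 CPM of each gene (rows) in each library (columns) minus the mean of its group, for experiment 1 and experiment 2; red is above the group mean and blue below. Control replicate 2 stands out at 0.95 for Arc and 1.10 for Npas4 and control replicate 4 at -0.79 and -0.70, while Plk2 and Rheb stay near 0 in experiment 1.

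Arc and Npas4 deviated together across the 11 libraries of experiment 1 once the group means were removed. Pearson's r was 0.879 (permutation p = 3.20e-04, adjusted over 45 pairs p = 0.0144) and Spearman's rho was 0.836 (permutation p = 0.00298, adjusted p = 0.134). Without the 2 libraries farthest from the Arc median r was 0.697. The r was 0.921 within controls alone and 0.839 within DN mice alone. The relation missed the adjusted threshold by rank, without any 1 of control replicates 1 to 5 or DN replicate 3 (adjusted permutation p from 0.0599 to 0.127, r from 0.772 to 0.912), and in the 8 libraries poor in choroid plexus markers (r = 0.595, adjusted permutation p = 0.403). In experiment 2 r was 0.367 over 8 libraries, where Arc varied less.

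Of the 45 pairs of members, 35 had a positive r in experiment 1, with a median of 0.334 and a range from -0.526 (Nptx1 and Rheb) to 0.879. The pairs share genes and libraries and are not independent, and pairs of other genes were not summarised, so this count is a description. Arc and Npas4 was the 1 pair with an adjusted p under 0.05 by Pearson's r, and no pair passed by Spearman's rho. Another 4 had an unadjusted permutation p under 0.05 by Pearson's r: Arc and Rgs2 (r = 0.752, rho = 0.691), Arc and Homer1 (r = 0.714, rho = 0.736), Nptx2 and Rheb (r = 0.675, rho = 0.609) and Rgs2 and Ptgs2 (r = 0.601, rho = 0.573), with permutation p of 0.0246 to 0.0326 for r (adjusted p = 0.294 each) and of 0.0216 to 0.0746 for rho (adjusted p from 0.267 to 0.342). Without the 2 farthest libraries these r values were 0.435, 0.649, 0.513 and 0.612 in the same order, so Arc and Rgs2 rested most on those libraries. By rank, Rgs2 and Ptgs2 missed that level, while Npas4 and Rheb (rho = 0.782, permutation p = 0.0117, adjusted p = 0.264; r = 0.580) and Homer1 and Npas4 (rho = 0.718, permutation p = 0.0237, adjusted p = 0.267; r = 0.584) reached it. In experiment 2 the median r over the 45 pairs was 0.101, with the means of the exposure groups removed but not the difference between tTA genotypes.

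**Figure D4:**
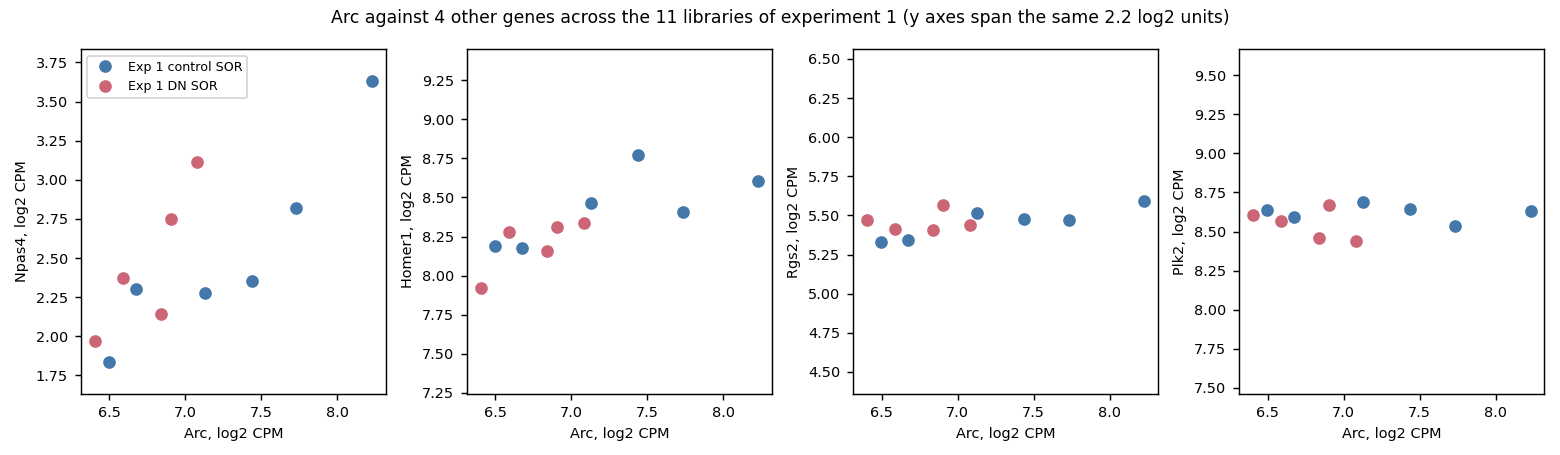
Log2 CPM of Npas4, Homer1, Rgs2 and Plk2 (y axes, each spanning 2.2 log2 units) against log2 CPM of Arc (x axis) in the 11 libraries of experiment 1. Npas4, Homer1 and Rgs2 have the 3 highest r with Arc after the group means are removed (0.879, 0.714 and 0.752) and Plk2 the lowest (-0.22).

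Ranked over all 22390 other genes tested in experiment 1, Npas4 was the 28th most alike to Arc by this r, Rgs2 the 258th and Homer1 the 386th. The 5 most alike were Junb (r = 0.986), Mcl1 (0.965), Nr4a1 (0.965), Slc5a3 (0.962) and 1700016P03Rik (0.941), over 11 libraries; these were picked for their r, so the values are a description. Junb and Nr4a1 are immediate early transcription factors, and Mcl1 encodes a survival protein of the Bcl-2 family. In experiment 2 their r with Arc over 8 libraries was 0.479, 0.475, 0.435, -0.290 and 0.516.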

How the data were processed

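RNA was sequenced from 19 dorsal hippocampus libraries, extracted with Trizol and made into libraries with TruSeq reagents after Ribo-Zero Gold depletion, per the labels' protocols. The deposited values are unnormalized counts per gene; the submitters' processing notes name STAR, SAMtools 1.6, featureCounts 1.4.4 and the build mm10. The annotation and the use of strand in counting are not given in the sources used here. Symbols and exon lengths came from GENCODE M21 (GRCm38), which matched 51596 of 51789 identifiers. Of the members, only Homer1 and Rheb overlapped other annotated genes, with 0 shared exon bases.

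Each experiment was fitted alone with edgeR 4.0.16 quasi-likelihood F tests (robust, two-sided, TMM scaling, filterByExpr with a minimum count of 10, R 4.3.3), and p-values were Benjamini-Hochberg adjusted over all genes tested, with calls at an adjusted p under 0.05. The SE of a fold change was taken from its log2 size and the F statistic (size over the root of F). CPM values are TMM-scaled, and log2 CPM used a prior count of 2. Biological coefficients of variation were 0.0940 (DN comparison), 0.169 (SOR against homecage) and 0.166 (tTA). Within groups, libraries differed beyond counting noise, so no library was counted as a repeat. The labels do not say that each library is a separate mouse beyond listing it as a sample, and p-values measure only the spread between these samples, which may be technical. Correlations used 100000 permutations of 1 gene within groups, and were adjusted over 45 pairs. Scripts were tested on simulated data.

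The members and lists were chosen with earlier results of these data known. Named genes were the 10 members, called genes of the lists, at most 4 examples per list by smallest p, and the 5 genes most like Arc. Alternatives were size factors as in DESeq2 (RLE), DESeq2 1.42.0, limma-voom (limma 3.58.1), no filter on low counts, a minimum of 10 counts in every library, a fit of all 19 libraries, a replicate block, tTA+ mice alone, tTA in the model, a prior count of 0.5 for the correlations, and each library left out in turn. The 14 libraries poor in choroid plexus markers (sum under 200 CPM), chosen after seeing the data, were also fitted alone. The coefficients of variation of Arc and Npas4 were also taken with each library left out, likewise chosen after seeing the data.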

Additional observations from a re-analysis of the deposited data

How the results depend on the processing

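In the DN comparison, 2 genes and 0 of the 10 members were called under every alternative run, each library left out included. Estimates of members near 0 changed sign: Rgs2 was -0.0013 with RLE size factors and -0.0012 with DESeq2, Npas4 was 0.43 in libraries poor in choroid plexus markers, and leaving out 1 library gave -0.0291 to 0.0284 for Rgs2, -0.050 to 0.0493 for Ptgs2, -0.32 to 0.19 for Npas4 and -0.0086 to 0.0767 for Nptx2.

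For SOR against homecage, the 20 genes called became 36 with no filter on low counts, 122 with DESeq2, 145 with all 19 libraries in 1 fit, 11 with tTA as a covariate, 0 in tTA+ mice alone, 1 in libraries poor in choroid plexus markers, and 1 to 50 with 1 library left out (50 without SOR replicate 3). The 1 member called became 4 with DESeq2 (Arc, Homer1, Nptx2 and Rasd1), 2 with all 19 libraries in 1 fit (Nptx2 and Rasd1), 0 in tTA+ mice alone, 0 in libraries poor in choroid plexus markers, and 0 to 2 with 1 library left out. The sign turned for Nptx1 (0.0652 with tTA as a covariate, 0.11 in tTA+ mice alone, -0.19 to 0.0695 with 1 library left out), Ptgs2 (-0.23 in libraries poor in choroid plexus markers, -0.0781 to 0.34 with 1 library left out) and Npas4 (-0.30 to 0.0531 with 1 library left out). Arc, Homer1, Nptx2, Plk2, Rgs2, Rheb and Rasd1 stayed higher in every alternative run. In the tTA+ mice alone and in the libraries poor in choroid plexus markers, fewer samples were fitted (5 and 6 of 8); the cause of the other changes was not tested.

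For tTA, the 82 genes called became 265 with no filter on low counts, 253 with DESeq2, 388 with all 19 libraries in 1 fit, 15 in libraries poor in choroid plexus markers, and 10 to 290 with 1 library left out (10 for SOR replicate 1, 290 for SOR replicate 3). The 0 members called became 2 with no filter on low counts, 1 with DESeq2, 2 with all 19 libraries in 1 fit (Ptgs2 and Nptx1 in these) and 0 to 1 with 1 library left out. The sign turned for Homer1 (0.0569 in libraries poor in choroid plexus markers, -0.0803 to 0.0611 with 1 left out), Nptx2 (-0.0053 and -0.0013 to 0.20) and Plk2 (-0.0668 to 0.0116 with 1 left out). The 1 pair of members past the threshold became 0 in libraries poor in choroid plexus markers and 0 to 1 with 1 library left out.

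Deviations of same-numbered samples correlated at -0.05 to 0.194 over 5 pairs in experiment 1. In experiment 2 they correlated at 0.0454 to 0.391 over 4 pairs. In the 2 experiments, 2 of 11 and 3 of 8 samples correlated best with their own number. With so few pairs, these values cannot decide whether replicate numbers pair the samples. With the replicate number as a block, 2 genes and 0 members were called for DN, and 9 genes and 1 member (Arc, log2 fold change 0.79, edgeR adjusted p = 0.0331) for SOR. Depth limits Npas4 most, with 87 to 521 counts per library.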

Other observations

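Rgs2 and Ptgs2 deviated together in experiment 1 (r = 0.601 over 11 libraries, unadjusted permutation p = 0.0325, adjusted p = 0.294; rho = 0.573) and in opposite directions in experiment 2 (r = -0.766 over 8 libraries). Within experiment 2 the tTA- libraries averaged 49.5 CPM in Ptgs2 and 40.5 CPM in Rgs2, and the tTA+ libraries 31.7 and 48.2 CPM; every mouse of experiment 1 was tTA+. The difference between the experiments was not tested.

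SOR replicate 3 of experiment 2 had the highest Nptx2 (51.5 CPM), Rgs2 (53.3 CPM) and Rheb (122 CPM) and the lowest Ptgs2 (22.8 CPM) of the 8 libraries of that experiment, together with the lowest total count. Dixon's criterion flagged no library of any group for any of the 10 members (40 groups of 4 to 6 libraries examined). In groups of this size it flags only very wide gaps. It did not flag Npas4 in control replicate 2 of experiment 1, at 12.4 CPM with the next control at 7.0 CPM.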
